A study of Mus musculus with 6 samples.

Results

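Single-cell RNA-Seq of mouse islets was used to describe the gene-rich β cells that carry 1 islet hormone, in WT and β14-3-3ζ–KO mice. A barcode was counted among these cells when it had more than 3000 detected genes, at least 5000 unique molecular identifiers (UMIs, each a counted transcript molecule), and at most 10% of UMIs on mitochondrially encoded (mt-) genes. In addition, *Ins1* and *Ins2* had to make up at least 25% of its UMIs and *Gcg*, *Sst*, and *Ppy* less than 0.5% each. The cells were thus chosen by their insulin and other hormone shares, mitochondrial share, UMIs, and gene number. The rule was met by 4960 of the 43445 barcodes in the 6 count matrices. Each library came from the islets of 1 mouse on a C57/BL6 background (C57BL/6J in the study's methods) aged 12 to 14 weeks, with 3 libraries per genotype. In the β14-3-3ζ–KO mice, Ins1-CreThor, a Cre recombinase inserted at the *Ins1* locus and active in β cells, deleted an exon of *Ywhaz*, which encodes 14-3-3ζ. The WT mice were littermates, and by the methods of the study such controls carried the Cre as well, which the labels do not give for each mouse. Islets recovered overnight and were dispersed, and dead cells were removed before loading.

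β cells make and store insulin, sense glucose through its uptake and metabolism, and release insulin when the membrane depolarizes. A mature β cell expresses the transcription factors *Mafa* and *Nkx6-1*, the glucose transporter *Slc2a2*, the islet glucose-6-phosphatase *G6pc2*, and the peptides *Iapp* and *Ucn3*. Because so much of its protein is folded in the endoplasmic reticulum (ER), its ER chaperones and the unfolded protein response (UPR) that controls them are part of its working state. 14-3-3 proteins are scaffolds that bind phosphorylated partners, and 14-3-3ζ is 1 of several closely related members.

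By library, the WT mice gave 593, 736, and 769 of the 4960 cells and the KO mice 951, 961, and 950. All 3 KO libraries held more of them than any WT library, a count that the rule itself sets. Insulin made up 25% or more of UMIs in 18002 barcodes, and 8238 of these had at least 5000 UMIs. The mitochondrial limit left 6718, the limits on other hormones 5664, and the gene number 4960. Of the insulin barcodes, 63.9%, 13.5%, and 36.0% met the whole rule in the WT libraries and 36.1%, 28.3%, and 27.6% in the KO libraries. These shares overlap between genotypes, and a library held 4400 to 10722 barcodes called as cells. The libraries held 74083947 to 98294915 UMIs in all, and their gene-rich β cells a median of 23708 to 46973 UMIs and 4304 to 5869 genes. The median mitochondrial share was 4.51% to 4.89%.

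Insulin transcripts were the largest part of these cells' RNA, and the median share was close in all 6 libraries. The median insulin share of UMIs was 40.3%, 39.4%, and 38.4% in WT and 38.3%, 41.7%, and 39.4% in KO, and these values chose the cells, so they carry no test. The upper tail differed in WT library 1, where the 90th percentile was 69.2% against 51.5% to 54.5% in the other 5. The split between the insulin genes also moved: *Ins2* was a median of 82.1%, 72.0%, and 72.7% of insulin UMIs in WT and 84.5%, 84.4%, and 84.4% in KO. In CPM, a gene's summed count scaled to its library's total and TMM factor, *Ins1* read 95762, 111434, and 105210 in WT and 62480, 74904, and 62725 in KO. *Ins2* read 436771, 286541, and 285287 in WT and 335411, 400882, and 338282 in KO. The *Ins1* count is uncertain, because the genes are near-identical and the Cre is inserted at the *Ins1* locus, and in this split WT library 1 lay near the KO libraries and apart from WT libraries 2 and 3. By the methods of the study the WT controls carried the Cre, but the Cre allele is not given for each of the 3 WT mice. That allele and the *Ywhaz* genotype therefore cannot be told apart in the *Ins1* values.

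**Figure D1:**
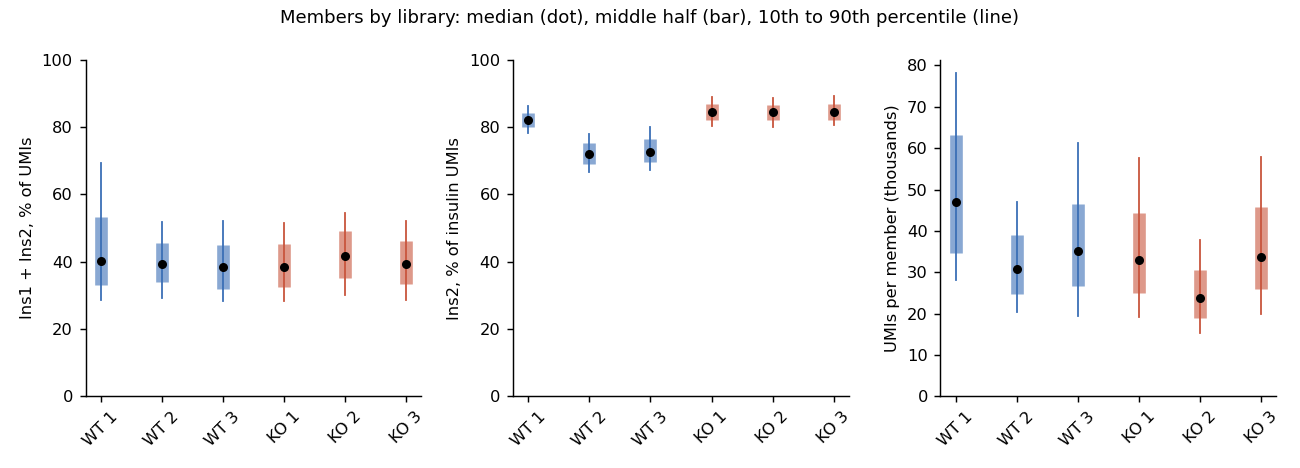
Gene-rich β cells in each of the 6 libraries: insulin share of UMIs (percent), *Ins2* share of insulin UMIs (percent), and UMIs per cell, with the median as a dot, the interquartile range as a bar, and the 10th to 90th percentile as a line. The insulin tail of WT library 1 reaches 69.2% at the 90th percentile, and *Ins2* takes a smaller part of insulin in WT libraries 2 and 3 (72.0% and 72.7%) than in the other 4.

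Cells on either side of each limit of the rule are described here without a test. The 104 cells just above 3000 genes had a median of 3153 genes and 49.8% insulin, and the 104 just below had 2875 genes and 61.3%. The 266 cells just inside the mitochondrial limit and the 212 just outside it had insulin medians of 33.4% and 32.7%. At the insulin limit, 233 cells inside had a median of 5104 genes and 201 outside had 5195. At the limit for *Sst*, the hormone of δ cells, only 11 cells lay just inside and 17 just outside.

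The absence of other hormones was relative. A *Gcg* UMI, the α cell hormone, was found in 100% of these cells in every library, at a median of 0.0276% to 0.112% of UMIs. An *Sst* UMI was found in 91.2% to 96.0% of them and a *Ppy* UMI in 97.3% to 99.9%, so that the presence of a UMI separated nothing and a share was needed. Free RNA in droplets can give such UMIs, and its part was not tested. A cell barcode was shared by 2 libraries once in each of 2 of the 15 library pairs. The doublet caller Scrublet, set to mark 0.8% of barcodes per 1000 barcodes of a library because its own threshold marked at most 0.0455%, marked 24 to 75 of the cells in a WT library and 29 to 81 in a KO library, and they were kept.

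WT library 1 stood apart from the other libraries, and results are given with and without it where that matters. Cells with insulin over 60% of UMIs were 106 in WT library 1 (17.9% of its cells), against 14 and 27 in the other WT libraries and 21, 38, and 17 in KO libraries, or 1.79% to 3.95%. When each cell was thinned to 3000 UMIs other than insulin, these high-insulin cells of WT library 1 had a median of 1257.5 detected genes, against 1664 in the rest of that library. In the other 5 libraries the high-insulin cells had 1406 to 1531 genes and the rest 1621 to 1676. Among 4611 genes at 20 CPM or more in every library, 15 in WT library 1 lay over 2-fold from the median of the other 5, against 0 to 4 in each other library. Its transthyretin gene *Ttr* stood at 557 CPM against 197 to 261, and its metallothionein gene *Mt2*, a metal-binding protein gene, at 208 against 396 to 908.

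The markers that the rule did not use were detected in most gene-rich β cells. A UMI of *Mafa*, a transcription factor of mature β cells, was found in 95.3% to 98.4% of cells, *Nkx6-1* in 95.4% to 97.6%, *G6pc2* in 97.1% to 98.9%, *Ucn3* in 87.9% to 93.2%, and *Slc2a2* in 85.0% to 94.3%. Thinned to 3000 non-insulin UMIs, *Mafa* was found in 63.1% to 87.5% and *Ucn3* in 41.1% to 59.0%, so the share depends on depth. After the same thinning *Gcg* was found in 81.1% to 99.3% and *Ppy* in 47.2% to 82.9%. The presence of a UMI alone therefore does not show expression by the cell, and the part of free RNA was not tested.

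None of these markers passed the test between genotypes (edgeR quasi-likelihood on UMIs summed per library, with the Benjamini-Hochberg FDR). *Iapp*, the amyloid peptide secreted with insulin, stood highest of the 6, at 40553, 34718, and 35861 CPM in WT and 35637, 39759, and 33945 in KO. The groups overlapped, with a log2 fold change (KO over WT) of -0.02 (SE 0.181, edgeR FDR 0.990). *Mafa* stood at 410, 723, and 638 CPM in WT and 532, 858, and 545 in KO, a log2 fold change of 0.13 (SE 0.240, edgeR FDR 0.943). WT library 1 was the lowest of the 6. *G6pc2* read 495, 503, and 416 CPM in WT and 402, 419, and 404 in KO. Only the lowest WT value was overlapped, and the log2 fold change was -0.21 (SE 0.0921, edgeR FDR 0.883). *Ucn3*, *Nkx6-1*, and *Slc2a2* overlapped between genotypes as well, with log2 fold changes of 0.05, 0.01, and -0.16. Summing a library's cells, a lower level can mean fewer expressing cells or less RNA per cell, and the sums alone cannot tell these apart.

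*Ywhaz* was the 1 gene called between the genotypes, and its level matched the genotype label of all 6 libraries. It stood at 149, 168, and 157 CPM in WT and 18.8, 20.7, and 19.4 in KO, with no overlap. The log2 fold change was -3.01 (SE 0.0817, edgeR FDR 1.21e-06). The kit counts 3′ ends, outside the deleted exon, so this is the amount of *Ywhaz* transcript and does not show the exon itself. A *Ywhaz* UMI was still found in 46.8%, 36.2%, and 46.2% of KO cells, against 97.0%, 98.2%, and 97.0% in WT. After thinning these were 8.94% to 10.4% in KO and 48.1% to 56.7% in WT (exact permutation test, p = 0.1). The annotated gene lies at chr15:36770770-36796929 on the minus strand.

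The other 14-3-3 genes were at near-equal levels in the genotypes. *Ywhae* stood highest, at 246, 295, and 287 CPM in WT and 262, 284, and 276 in KO (log2 fold change -0.01). *Ywhaq* read 214, 226, and 228 in WT and 208, 249, and 222 in KO (0.02). *Ywhab*, *Ywhah*, and *Ywhag* had log2 fold changes of 0.04, 0.10, and -0.01. *Sfn* lay below the filter on low counts, with a UMI in 5.20% to 14.2% of cells. Levels are not compared per length, since 3′ tags are counted per transcript end.

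**Figure D2:**
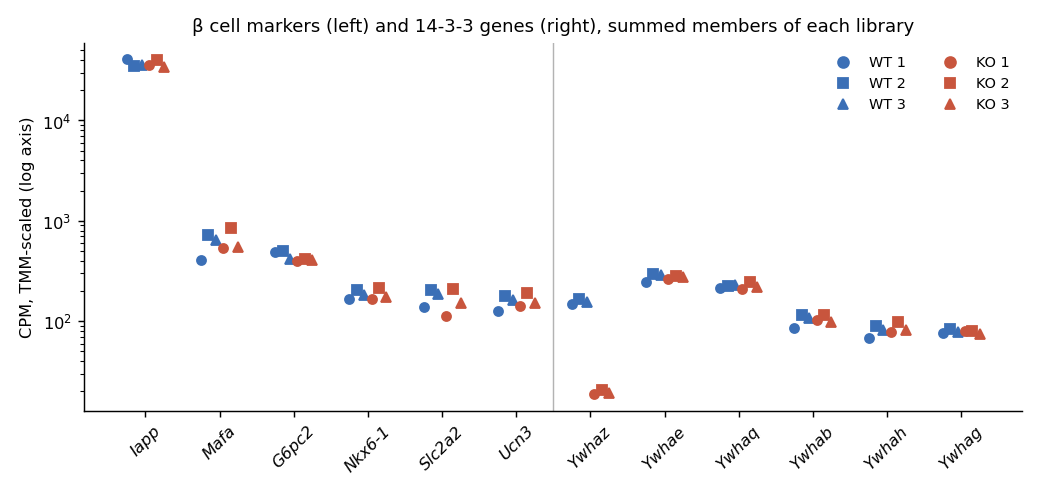
TMM-scaled CPM (log axis) of 6 β cell markers (left) and 6 14-3-3 genes (right) in the gene-rich β cells of each of the 6 libraries, 1 point per library. The *Ywhaz* points of KO lie at 18.8 to 20.7 CPM and those of WT at 149 to 168, while the other genes shown overlap between genotypes or differ by less than the spread of libraries.

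Of 9678 genes tested, *Ywhaz* alone had an FDR under 0.05 with an absolute log2 fold change over 0.1 (0.0103% of genes). Unadjusted, 459 genes had p under 0.05, with 239 higher and 220 lower in KO. The biological coefficient of variation was 0.109. In KO libraries, 585 genes (6.04%) lay below all WT libraries and 541 (5.59%) above. *Gstp1*, a glutathione transferase, came next: it read 11.7, 9.82, and 10.2 CPM in WT and 5.09, 3.62, and 5.73 in KO (log2 fold change -1.11, SE 0.160, edgeR FDR 0.443). The KO libraries were all below WT. Of the next lowest p, *Rbm14*, *Hist2h2aa1*, *Cnr1*, and *Gm10076* lay lower in KO (log2 fold changes -0.45, -0.69, -0.52, and -0.99) and *Gm1673*, *Ebpl*, *Fbxo6*, *Cep131*, and *Mns1* higher (0.47, 0.37, 0.34, 0.42, and 0.33), all with an edgeR FDR of 0.883. *Cnr1*, the cannabinoid receptor gene, stood at 11.0, 9.38, and 11.5 in WT and 7.54, 7.12, and 7.54 in KO. *Egr1*, an immediate early transcription factor gene, read 101, 96.1, and 99.3 in WT and 83.3, 63.3, and 68.2 in KO (log2 fold change -0.46, SE 0.103), with no overlap and an edgeR FDR of 0.883.

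WT and KO libraries of the same number were alike in their deviations, and a fit blocked on that number called 5 genes (0.0517% of those tested), all lower in KO. They were *Ywhaz*, *Gstp1* (log2 fold change -1.12, FDR 0.0230), *Spp1* (osteopontin, -1.11, FDR 0.0230), the phosphatase gene *Dusp4* (-1.29, FDR 0.0284), and the histone gene *Hist1h2ap* (-1.34, FDR 0.0471), all by edgeR. Histone genes have near-identical copies, so their counts are uncertain. Where KO cells with a *Ywhaz* UMI were also left out, 16 of 9671 genes were called in the blocked fit, 15 lower and *Rbp4* higher. *Ywhaz* was among the 15 by the choice of cells. This cut left out no WT cells, and finding a UMI depends on depth, so it can also shift the depth of the KO cells kept. By the study, *Ywhaz* fell only in β cells, so the cut can also leave out KO cells that hold RNA of other cell types. Neither effect was tested. The lower genes included *Egr1* (-0.54), *Jun* (-0.57), and the ER chaperone cofactor *Sdf2l1* (-0.66), none of which the unblocked fit called. Besides the genes of the first blocked fit, the rest were *Cd44*, *Gm10076*, *Nfkbiz*, *Tnfrsf11b*, the histone genes *Hist1h1d* and *Hist1h2ae*, and the B cell marker *Ighm* (-2.31).

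The ER chaperone and UPR genes lay mostly lower in KO, none past the adjusted test. Of its 30 genes 29 were tested, and 27 had a lower level in KO, against 50.5% of all genes. Their median log2 fold change was -0.16, against -0.00 over all genes. KO libraries were below every WT library for 7 of the 29 (6.04% of all genes) and above for 0. Of the 29, 6 were lower with an unadjusted p under 0.05, against 220 of all 9678 genes. Without WT library 1, the median was -0.11.

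*Hspa5*, the ER chaperone BiP, stood at 1622, 942, and 1013 CPM in WT and 861, 645, and 856 in KO. Every KO library was below every WT library, with WT library 1 far above the rest (log2 fold change -0.60, SE 0.211, edgeR FDR 0.883). *Sdf2l1* read 108, 67.0, and 66.2 in WT and 54.9, 49.4, and 54.3 in KO (-0.60, SE 0.177). *Pdia4*, a disulfide isomerase gene, read 112, 103, and 89.5 in WT and 81.7, 75.4, and 77.7 in KO (-0.37, SE 0.0915). *Dnajb9*, a BiP cofactor, read 278, 188, and 212 in WT and 176, 172, and 172 in KO, and neither overlapped. The ER chaperone gene *Hsp90b1*, with 916, 629, and 675 in WT and 641, 533, and 629 in KO, did overlap. *Calr* and *Creld2* overlapped too.

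Summed over the list, ER and UPR genes took 12931, 10709, and 10582 CPM in WT when only non-insulin UMIs were counted in the total (non-insulin CPM) and 9906, 8915, and 9907 in KO. The mean per cell thinned to 3000 UMIs was 40.5, 32.2, and 32.3 in WT and 29.2, 26.2, and 29.6 in KO (exact permutation test, 2-sided, p = 0.1, the smallest p that 3 against 3 allows). Without the cells over 60% insulin it was 36.3, 31.8, and 31.2 in WT and 28.7, 26.0, and 29.3 in KO. The median cells were close, at 30, 29, and 27 UMIs in WT and 27, 25, and 27 in KO, while the 90th percentile was 75, 48, and 49.2 against 43, 38, and 43. The libraries therefore parted in their upper tail more than in their median cell.

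**Figure D3:**
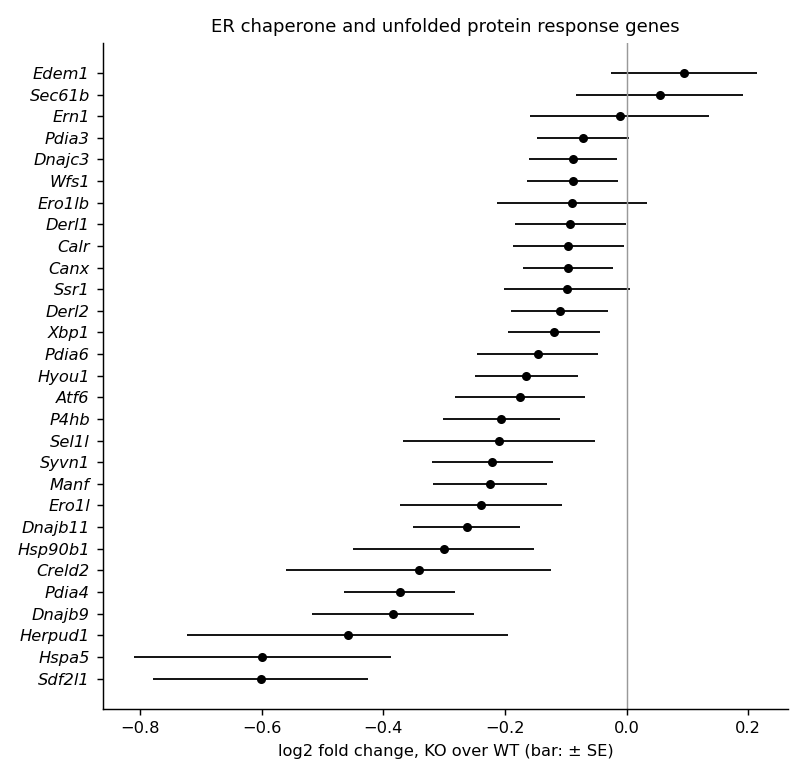
Log2 fold change of KO over WT (dot) with its standard error (bar) for the 29 tested ER and UPR genes in gene-rich β cells. 27 of the 29 lie below 0, with *Hspa5* and *Sdf2l1* at -0.60 and the median gene at -0.16, and none passed the adjusted test.

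Promoters of the list were searched for the ER stress response element (CCAAT, 9 bases, CCACG), which the UPR factor ATF6 is known to bind with NF-Y. The search covered 250 bases before to 50 after each gene's start on both strands, in RefSeq sequence of GRCm38.p6. It was found in 9 of the 25 matched list promoters (36.0%: *Calr*, *Canx*, *Creld2*, *Derl3*, *Dnajc3*, *Hsp90b1*, *Hspa5*, *Pdia6*, and *Syvn1*) and in 39 of all 32851 promoters (0.119%). A match is only these letters in this window. The promoters are shown for the chaperone genes *Hspa5* (chr2:34771840-34772139, plus strand, 1 match), *Hsp90b1* (chr10:86705395-86705694, minus strand, 2 matches), *Calr* (chr8:84846882-84847181, minus strand, 1 match), and *Creld2* (chr15:88819396-88819695, plus strand, 1 match), with each match in capitals.
Hspa5: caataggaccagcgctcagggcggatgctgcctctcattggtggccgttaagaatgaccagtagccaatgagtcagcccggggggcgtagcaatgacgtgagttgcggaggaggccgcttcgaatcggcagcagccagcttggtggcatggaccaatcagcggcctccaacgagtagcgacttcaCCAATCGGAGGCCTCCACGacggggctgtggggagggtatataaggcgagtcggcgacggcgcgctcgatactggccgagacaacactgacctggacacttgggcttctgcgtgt
Hsp90b1: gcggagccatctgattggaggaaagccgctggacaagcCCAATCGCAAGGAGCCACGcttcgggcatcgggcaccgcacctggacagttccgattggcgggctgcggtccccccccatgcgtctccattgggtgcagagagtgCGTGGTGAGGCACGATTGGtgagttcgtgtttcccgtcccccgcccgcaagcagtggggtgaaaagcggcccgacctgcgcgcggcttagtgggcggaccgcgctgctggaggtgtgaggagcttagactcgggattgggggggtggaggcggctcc
Calr: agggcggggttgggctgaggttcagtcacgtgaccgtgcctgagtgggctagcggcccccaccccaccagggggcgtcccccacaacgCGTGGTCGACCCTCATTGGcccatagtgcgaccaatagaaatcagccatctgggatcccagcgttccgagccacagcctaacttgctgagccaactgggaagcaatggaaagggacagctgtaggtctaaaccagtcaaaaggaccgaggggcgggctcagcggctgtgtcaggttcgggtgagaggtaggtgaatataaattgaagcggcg
Creld2: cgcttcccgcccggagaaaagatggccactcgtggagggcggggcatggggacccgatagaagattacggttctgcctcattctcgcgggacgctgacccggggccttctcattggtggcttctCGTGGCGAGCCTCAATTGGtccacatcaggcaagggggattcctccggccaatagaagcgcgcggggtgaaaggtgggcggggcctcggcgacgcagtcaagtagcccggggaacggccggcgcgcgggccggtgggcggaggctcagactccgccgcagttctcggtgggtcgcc

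Other lists of β cell function were more evenly divided. Of 23 β cell transcription factor genes, 7 lay higher and 16 lower (median -0.04), and of 23 glucose sensing and excitability genes, 14 and 9 (median 0.07). In the latter, *Trpm5*, a cation channel of the stimulus pathway, read 61.9, 65.5, and 59.1 CPM in WT and 69.6, 78.3, and 70.4 in KO. *Ucp2*, a mitochondrial carrier, read 119, 124, and 128 in WT and 146, 165, and 135 in KO. Of the 23 genes, only these 2 had KO values that all exceeded the WT values, against 5.59% of all genes. Neither gene passed the adjusted test (edgeR FDR 0.883 for each). Of 28 granule and processing genes, 18 lay higher and 10 lower, and 0 had unadjusted p under 0.05 in edgeR. Of the 22 disallowed genes, which β cells normally keep off, only 2 passed the filter on low counts, and of 6 immaturity genes 2 lay higher and 4 lower.

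Genes of the mitochondrial respiratory chain (OXPHOS) and cytosolic ribosome lay mostly higher in KO, by small amounts. Of 78 OXPHOS genes 69 lay higher (median log2 fold change 0.14), and of 81 ribosomal protein genes 71 (median 0.15). Without KO library 2 those medians were 0.01 and 0.07, so 1 library decides their size. KO libraries were above every WT library for 8 of the 78 and 17 of the 81, against 5.59% of all genes. None passed the adjusted test. Of 23 genes of the integrated stress response, 19 lay lower (median -0.13), and without WT library 1 the median was 0.05. Of 15 immediate early genes 11 lay lower and 2, *Egr1* and *Ier2*, had KO below WT throughout, against 6.04% of all genes. Among 23 antioxidant genes 13 lay higher and 10 lower, among 12 heat shock genes 3 and 9, among 15 interferon genes 11 and 4, and among 7 cell cycle genes 2 and 5. The 4 Y-linked genes *Ddx3y*, *Uty*, *Kdm5d*, and *Eif2s3y* were expressed in all 6 libraries and lay lower in KO without passing the test.

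Within a library, the widest spread between gene-rich β cells was in a peptide hormone, in stress genes and in metallothioneins, ahead of the β cell markers. The measure was the squared coefficient of variation beyond that of counting (excess CV2), in cells thinned to 3000 non-insulin UMIs, for the 2397 genes with a mean of 0.2 UMIs or more in every library. Its median was 0.104 and the 90th percentile 0.285, and 26 genes exceeded 1.

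*Pyy*, a peptide of PP cells, was widest, at 9.37, 32.4, and 30.4 in WT and 15.9, 13.3, and 19.1 in KO. It took 0.5% or more of UMIs in 1, 11, and 11 WT cells and in 13, 9, and 9 KO cells, which held 9.50% to 55.5% of all *Pyy* UMIs of these cells. By the median over libraries, *Txnip* (3.39), a thioredoxin inhibitor induced by glucose, came next. It was followed by the metallothionein gene *Mt2* (3.32), the opioid peptide gene *Pdyn*, the cell cycle inhibitor gene *Cdkn1a* (3.02), and *Mt1* (2.67). In WT library 1, *Mt2* stood at 18.5 and *Mt1* at 11.0. The stress genes *Nupr1* (2.41), *Ddit3* (2.30), and *Hspa5* (2.02), the early gene *Egr1* (2.37), and *Clu* (2.08) followed.

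The markers had lower medians than these 15 genes, with *Mafa* the widest of the 6 plotted, at 2.40, 0.812, and 0.807 in WT and 0.931, 0.581, and 0.879 in KO. *Slc2a2* had a median of 0.677 and *Ucn3* 0.423. *Mafa*, *Slc2a2*, and *Ucn3* still ranked 35, 50, and 106 of the 2397 genes, each above the 90th percentile of 0.285, so these markers were not uniform. *Ucn3* stood at 0.641, 0.455, and 0.531 in WT and 0.391, 0.209, and 0.287 in KO, with every KO library lower (exact permutation test, p = 0.1, the smallest possible). KO libraries lay below WT for 204 of the 2397 genes (8.51%) and above for 54.

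Of 28 ER and UPR genes in this table, KO libraries lay below all WT libraries in excess CV2 for 5 (*Hspa5*, *Dnajb9*, *Herpud1*, *Pdia3*, and *Sel1l*) and above for 0, against 8.51% of all genes below. The other 23 overlapped, *Sdf2l1*, *Hsp90b1*, *Calr*, *Manf*, and *Pdia4* among them. *Hspa5* had an excess CV2 of 2.77, 2.13, and 3.20 in WT and 1.91, 0.544, and 1.40 in KO. *Dnajb9* had 2.34, 1.54, and 2.05 in WT and 0.605, 0.231, and 1.13 in KO, and *Herpud1*, a protein of ER-associated degradation, 2.99, 1.15, and 2.47 against 0.898, 0.197, and 0.722. In each the KO libraries were below the WT libraries. *Tent5a*, a poly(A) polymerase gene outside the list, was also lower in each KO library, with 3.56, 2.25, and 2.71 against 1.76, 1.31, and 1.61.

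**Figure D4:**
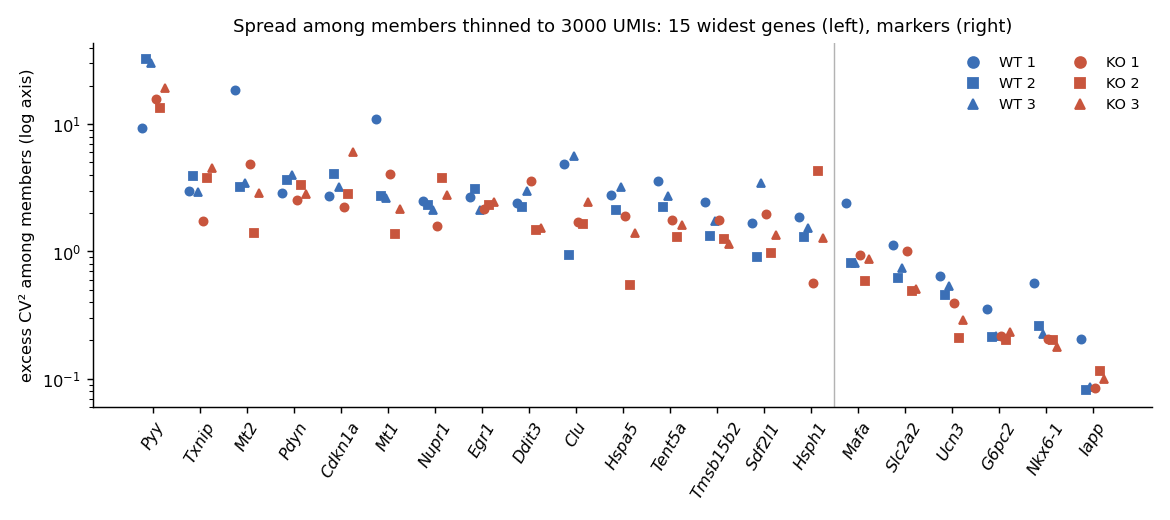
Excess squared coefficient of variation (log axis) between gene-rich β cells of a library for the 15 genes of the widest spread and 6 β cell markers, 1 point per library. *Pyy* lies highest, at 9.37 to 32.4, while *Ucn3* has 0.209 to 0.641.

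The metallothionein promoters are shown because *Mt1* and *Mt2* were among the widest genes and moved together. Capitals mark the metal response element core (TGCACNC or TGCGCNC, both strands), which the factor MTF1 is known to bind. *Mt1* (chr8:94178839-94179138, plus strand) holds 3 matches and *Mt2* (chr8:94172368-94172667, plus strand) 4. At least 1 core is in 25.7% of all promoters and 3 or more in 1.97%.
Mt1: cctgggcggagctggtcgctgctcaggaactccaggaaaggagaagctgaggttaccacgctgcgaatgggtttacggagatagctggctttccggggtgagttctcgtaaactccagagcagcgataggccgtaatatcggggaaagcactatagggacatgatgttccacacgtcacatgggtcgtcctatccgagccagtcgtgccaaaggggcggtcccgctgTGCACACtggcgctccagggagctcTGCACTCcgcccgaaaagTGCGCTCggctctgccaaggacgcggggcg
Mt2: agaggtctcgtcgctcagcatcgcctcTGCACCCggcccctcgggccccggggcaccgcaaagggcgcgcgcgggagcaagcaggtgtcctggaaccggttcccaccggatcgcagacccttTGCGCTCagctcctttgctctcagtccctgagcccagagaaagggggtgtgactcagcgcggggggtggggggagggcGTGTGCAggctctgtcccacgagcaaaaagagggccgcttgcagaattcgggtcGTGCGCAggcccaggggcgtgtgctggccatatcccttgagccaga

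Rank correlations between genes over the thinned cells of a library, which share depth and library, describe which vary together. *Mt1* and *Mt2* had a median Spearman correlation of 0.768 (0.664 to 0.802 over the 6 libraries). *Hspa5* went with *Hsp90b1* at 0.361 (0.237 to 0.470) and with *Manf*, an ER-resident neurotrophic factor, at 0.280. *Mafa* went with *G6pc2* at 0.203 (0.157 to 0.296), with *Slc2a2* at 0.199, and with *Ucn3* at 0.0986. The stress transcription factor gene *Ddit3* and its target *Trib3* were at 0.161. A cell's insulin share went with its UMIs in all 6 libraries (Spearman 0.321 to 0.539) and against its mitochondrial share (-0.607 to -0.428). It went with the summed ER genes at 0.158 to 0.528 and with the granule genes at 0.342 to 0.498. With the number of genes in 3000 UMIs it stood at -0.689 to -0.160, WT library 1 being the most negative.

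The variance to mean ratio of a list's summed UMIs per thinned cell was a second measure of spread, taken by list. For the ER and UPR list it was 23.4, 8.38, and 16.1 in WT and 8.62, 3.58, and 6.53 in KO, and the groups overlapped by 1 library (exact permutation test, p = 0.2). Without cells over 60% insulin, a cut added after seeing the data, it was 22.2, 8.21, and 14.1 in WT and 8.03, 3.58, and 5.92 in KO. No library then overlapped (exact permutation test, p = 0.1), but the nearest values, 8.21 and 8.03, were close. The ratio can rise with a list's mean, which was also lower in each KO library, so it does not separate spread from level here. In 4 of 18 lists KO was below WT throughout. For single genes the share was 8.51%, but by excess CV2, a different measure, so it is no base rate for lists. With another random draw or with cells thinned to 5000 UMIs of all genes, the lists without overlap were 2. β cell transcription factors had 3.77, 2.49, and 2.38 in WT and 2.34, 2.31, and 2.10 in KO. Glucose sensing genes had 3.25, 2.21, and 2.29 against 2.03, 1.92, and 2.11, and immediate early genes 3.39, 2.61, and 2.55 against 2.47, 2.13, and 2.16. The 14-3-3 list itself, which holds *Ywhaz*, had 1.18, 1.06, and 1.22 against 1.02 in each KO library. Each reached the smallest permutation p of 0.1. Without cells over 60% insulin, the immediate early genes overlapped, with 2.55, 2.63, and 2.46 in WT and 2.49, 2.13, and 2.04 in KO, and the other 3 lists did not. In the first 3 lists WT library 1 lay well above the other 5 libraries, whose values lay close together.

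**Figure D5:**
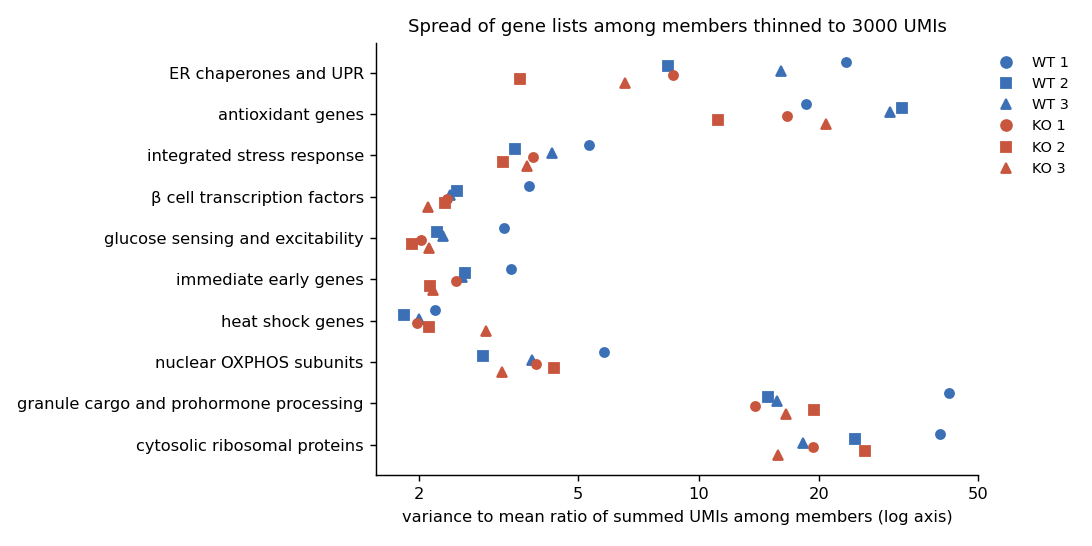
Variance to mean ratio (log axis) of the summed UMIs per thinned gene-rich β cell in 10 gene lists, 1 point per library. The ER and UPR list spans 3.58 to 23.4. In KO libraries it lies at 8.62 or less and in WT libraries at 8.38 or more, so the genotypes overlap.

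Few cells showed a cell cycle. At least 3 of the 6 cell cycle genes *Mki67*, *Top2a*, *Cdk1*, *Ccnb1*, *Ccna2*, and *Birc5* had a UMI in 5, 1, and 6 cells of WT and 7, 0, and 6 of KO, which is 0.843%, 0.136%, and 0.780% and 0.736%, 0%, and 0.632%. For KO library 2, 0 of 961 cells allows a share of up to 0.312%, counting error only. These cells were not thinned, so the counts depend on depth, and KO library 2 had the lowest median, 23708 UMIs per cell.

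RNA of other cell types lay in these cells at low levels, and differed between libraries. B cell markers took 747 non-insulin CPM in WT library 2 and 1511 in KO library 2. In WT library 3, KO library 1, and KO library 3 they took 14.9, 13.2, and 14.3, and WT library 1 also lay far below both libraries numbered 2. In those 2 libraries *Igkc*, an antibody light chain gene, had a UMI in 84.6% and 81.2% of their cells, against 1.04% to 20.7%. In those libraries 1 cell held 50.6% and 35.2% of the B cell UMIs. Acinar markers stood at 1143 in WT library 1 against 6.06 to 82.9 elsewhere, with 97.0% from 1 cell. Endothelial markers ranged over 28.0 to 93.4, stellate over 5.66 to 43.7, and macrophage over 60.2 to 117. Their part in the results above was not tested.

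Insulin-rich barcodes that failed a limit of the rule differed from gene-rich β cells, as descriptions. The 704 with few genes had a median of 2190.5 genes and 64.3% insulin, and in non-insulin CPM they had more ribosomal (6 of 6 libraries, 1.37 to 2.05 times) and fewer transcription factor transcripts (6 of 6, 0.396 to 0.666 times). The 1320 with a high mitochondrial share, which were not held to the gene number limit, had 4080.5 genes and 31.8% insulin. The 168 with insulin and *Sst* had 6736.5 genes, and their immediate early genes were higher in 6 of 6 libraries (1.27 to 1.91 times).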

How the data were processed

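Islet single-cell libraries of 3 WT and 3 β14-3-3ζ–KO mice were used, 1 library per mouse. The authors made the deposited counts with Cell Ranger 6.0.2 on mm10, per the processing notes that also name Seurat. Each value is a raw UMI count per gene and barcode, not normalized, for 32285 genes. Samples were grouped by genotype label, and cells were never treated as replicates. The labels give no sex.

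Cells were chosen by the rule in the report. UMIs were summed per library and compared between genotypes with edgeR 4.0.16 (quasi-likelihood test, TMM scaling, genes detected in over 15% of the WT or the KO cells, FDR under 0.05 and absolute log2 fold change over 0.1) in R 4.3.3 with limma 3.58.1. DESeq2 1.42.0 was an alternative. Single values were compared by exact permutation tests, 2-sided, for which 3 against 3 cannot go below 0.1. For spread, each cell was thinned to 3000 UMIs other than *Ins1* and *Ins2*. Python 3.11.15 was used with scanpy 1.11.5 (for Scrublet), scipy 1.17.1, pandas 2.3.3, numpy 2.4.6, and matplotlib 3.10.9. Doublet calls were kept. The fit was tested on simulated data with known changes. Counts of 0 and intervals cover counting error only.

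The members and gene lists were chosen with earlier results of these data known. Named were the markers, the 14-3-3 genes, called genes, the 5 lowest p in each direction where under 10 were called, the leading genes of each list, and the 15 genes of widest spread, described in part by counts. Deviations from the group means correlated at 0.50, 0.55, and 0.33 between same-numbered WT and KO libraries and at -0.55 to -0.05 otherwise, so that the numbers were taken to pair them. Deviations within a genotype cancel out, so the negative values follow in part from the positive ones and are no separate evidence. The pairing was read from the same counts that the blocked fit tested. The source of the pairing is not given in the sources used here. Library totals were 74083947 to 98294915 UMIs.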

Additional observations from a re-analysis of the deposited data

How the results depend on the processing

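The fall of *Ywhaz* passed the test in every alternative run, and no called value changed sign. The runs that left out KO cells holding a *Ywhaz* UMI do not test it, since their KO cells were chosen to hold none. The median log2 fold changes of 6 of 18 lists, taken without the genes that the rule used, changed sign in 12 of 180 alternative values. The integrated stress response was among them (-0.13, and 0.05 without WT library 1). So was the list of other islet hormones, where *Pyy* was the only tested gene left (0.18, and -0.13 without WT library 1). The number of genes called was 1, and it was 1 in each fit that left out a library (1 to 1). It was 4 with DESeq2, 2 without a filter on low counts, 5 with the replicate block, and 16 with the replicate block and without KO cells holding a *Ywhaz* UMI, the last added after seeing the data. With the replicate block, 1 gene of the 18 lists of cell state and function other than *Ywhaz* was called, *Gstp1*, against 0. *Spp1*, also called there, is in the ductal marker list. Lists whose spread did not overlap were 4, and 2 when cells were thinned to 5000 UMIs of all genes and 2 with another thinning seed. Without each library they were 4 to 7, but leaving out a library cannot lower this count, so it is no check. With at most 5% mt- UMIs 2698 cells met the rule, and with insulin at 40% or more 2388, against 4960. Without KO library 2 the median log2 fold change was 0.01 for OXPHOS genes, 0.07 for ribosomal genes, and -0.12 for the markers. Elsewhere causes were not tested.

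Limits: with 3 mice per genotype permutation tests stop at 0.1, WT library 1 sets the width of several spreads, and the list spreads below WT depend on the thinning draw.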
